A study of Mus musculus with 10 samples.

Results

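Dermal innate lymphoid cells sorted as CCR6+ were compared with innate lymphoid cells of the subcutaneous layer of the same organ, the skin of adult B6 mice. The members were all libraries whose titles name these populations, 2 of dermal CCR6+ and 3 of subcutaneous cells, which are 5 of the 10 RNA-seq libraries of the series. The other 5 libraries, 3 of epidermal cells and 2 of dermal cells sorted as Sca1+, entered the statistical model and are given below only beside single genes. All groups share strain, stage and tissue, and the labels name no treatment or genetic change. The 2 groups differ in layer and also in sort: the dermal cells were chosen by the chemokine receptor CCR6, whereas no marker is named for the subcutaneous cells, so layer and sort cannot be told apart. Nothing in the labels ties a library to 1 animal or to a pool, so the p-values measure only how far these libraries scatter, and that scatter may be technical.

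Innate lymphoid cells (ILCs) are tissue lymphocytes without rearranged antigen receptors. Group 2 ILCs depend on the transcription factors GATA3 and RORα and release IL-5 and IL-13 on contact with epithelial alarmins such as IL-33, which is sensed through the receptor ST2 (Il1rl1). Group 3 ILCs release IL-17 and IL-22 and include CCR6+ lymphoid tissue inducer cells. In skin, ILCs lie close to hair follicles and sebaceous glands as well as in the fat-rich layer below the dermis.

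The promoters of 4 genes described below are shown first, from 250 bases before to 50 bases after the RefSeq start (GRCm38.p6), 5′ to 3′ on the strand of the gene. They belong to a type 2 cytokine (Il5), the IL-33 receptor (Il1rl1), a second type 2 cytokine (Il13) and the receptor of the dermal sort (Ccr6). Capitals mark matches to the letters AGATAA or TGATAA, which GATA factors can bind, and to AGGTCA, a half-site of ROR factors, on either strand. The Il5 window is chr11:53720544-53720843 on the plus strand, that of Il1rl1 is chr1:40429320-40429619 on the plus strand, that of Il13 is chr11:53634653-53634952 on the minus strand, and that of Ccr6 is chr17:8235793-8236092 on the plus strand.
Il5: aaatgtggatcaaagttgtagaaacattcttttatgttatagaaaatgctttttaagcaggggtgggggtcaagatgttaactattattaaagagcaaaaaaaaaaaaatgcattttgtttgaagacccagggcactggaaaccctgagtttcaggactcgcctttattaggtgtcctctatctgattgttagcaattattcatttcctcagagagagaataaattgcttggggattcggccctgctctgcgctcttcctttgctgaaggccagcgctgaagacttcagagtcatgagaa
Il1rl1: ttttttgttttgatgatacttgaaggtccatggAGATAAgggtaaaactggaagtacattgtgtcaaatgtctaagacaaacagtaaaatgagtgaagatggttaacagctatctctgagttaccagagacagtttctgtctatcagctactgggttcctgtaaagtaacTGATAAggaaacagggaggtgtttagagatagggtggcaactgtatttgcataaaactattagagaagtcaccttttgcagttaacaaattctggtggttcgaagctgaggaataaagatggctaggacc
Il13: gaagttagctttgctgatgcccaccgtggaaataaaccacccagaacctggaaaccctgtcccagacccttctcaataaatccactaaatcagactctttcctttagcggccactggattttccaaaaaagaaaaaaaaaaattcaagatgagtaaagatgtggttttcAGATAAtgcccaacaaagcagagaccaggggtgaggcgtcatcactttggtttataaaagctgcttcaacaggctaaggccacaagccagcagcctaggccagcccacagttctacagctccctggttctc
Ccr6: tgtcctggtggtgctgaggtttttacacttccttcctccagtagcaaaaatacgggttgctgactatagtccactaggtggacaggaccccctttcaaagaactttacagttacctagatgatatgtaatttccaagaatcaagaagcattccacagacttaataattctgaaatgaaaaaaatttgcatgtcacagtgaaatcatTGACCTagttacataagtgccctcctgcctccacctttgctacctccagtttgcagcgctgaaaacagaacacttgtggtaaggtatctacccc

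The Il1rl1 window held 2 GATA matches, which begin 217 and 80 bases before the start, the Il13 window held 1, 81 bases before the start, and the Il5 window held none. The forms AGATAG and TGATAG were not searched. The Il5 window holds ctatct, which reads AGATAG on the opposite strand, and the Il1rl1 window also holds such letters. The Ccr6 window held no GATA match and 1 ROR match, on the opposite strand, 44 bases before the start. Of all 32851 promoter windows in the table, 18.6% held a GATA match and 16.3% a ROR match. Of the 30 genes of the type 2 list described below, 26 were in the table, and 7 of these held a GATA match and 3 a ROR match. Matches to TGANTCA (AP-1) were in 3 of the 26 and in 7.81% of all windows, and matches to GGGNGTG (Kruppel-like factors) in 4 of the 26 and in 29.2% of all windows. No GATA match overlapped a match to another of these motifs in the printed windows. A match is only a run of letters, and these data hold no measurement of binding.

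The summed expected counts of a library ranged from 13759666 to 16058109, with 15013 to 19435 genes detected by 1 count or more. Levels below are CPM (counts per scaled library total, the usual sequencing unit that allows libraries to be compared), and 3 counts amount to 0.193 to 0.238 CPM in the 5 libraries compared. The share of mitochondrial transcripts was 1.61% to 3.54%. Spearman correlations across genes were 0.934 between the dermal CCR6+ libraries, at least 0.944 between subcutaneous libraries and at most 0.869 between the groups. The first principal component held 57.3% of the variance and separated the groups. The second held 18.3% and set the dermal CCR6+ libraries apart from each other, with scores of 111 and -81.3. Subcutaneous replicate 2 differed from the other subcutaneous libraries in natural killer cell and group 3 genes, and its values are given where they matter. It was also highest in summed macrophage markers (13859 CPM against 6921 and 7944). Subcutaneous replicate 1 was highest in summed glandular epithelial markers (5773 CPM against 2245 and 2773) and immediate early genes (28694 against 17054 and 22044).

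Of 16208 genes tested, 608 were higher and 601 lower in dermal CCR6+ than in subcutaneous ILCs at an edgeR adjusted p under 0.05. The call rate was thus 7.46% in either direction, 3.75% higher and 3.71% lower, and these are the rates against which the lists below are read. In these bulk samples, fewer cells of a type and less RNA per cell cannot be told apart. Called genes were more than 2-fold apart in 1127 of 1209 cases. The median size of a called difference was 1.96 on the log2 scale for the higher genes and 3.14 for the lower genes, and the median over all genes tested was -0.08. In all 1209 called genes the libraries of the groups did not overlap, which was also so for 43.3% of all genes tested (19.8% with dermal CCR6+ above and 23.5% with it below). Without dermal CCR6+ replicate 2 the counts fell to 243 higher and 192 lower, and they lay between 368 and 560 in either direction without any of the other 4 libraries.

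**Figure D1:**
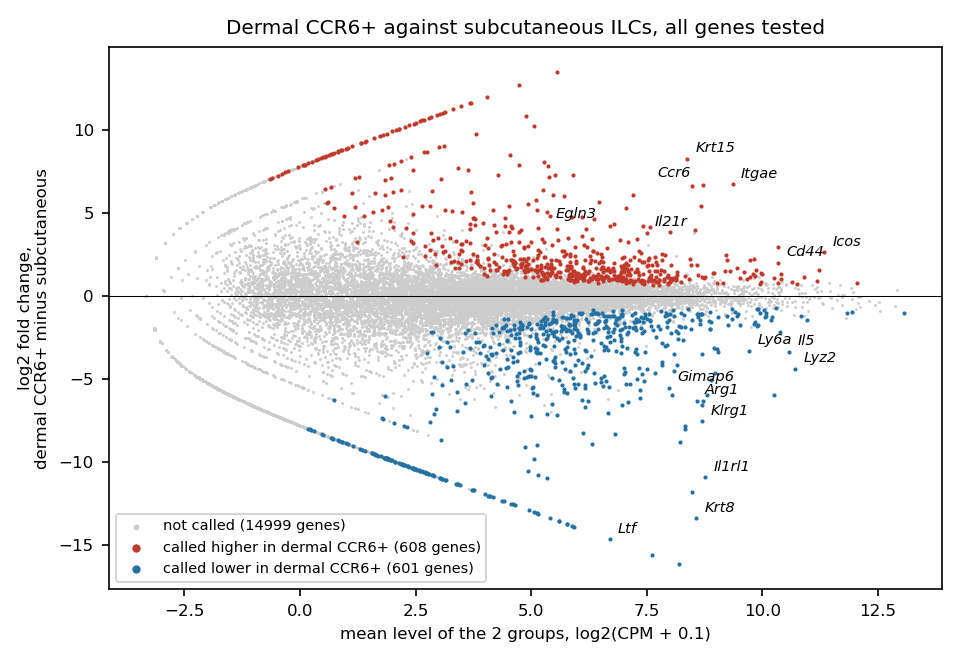
Log2 fold change (dermal CCR6+ minus subcutaneous) of each gene tested against its mean level in the 2 groups, log2(CPM + 0.1). Red points are the 608 genes called higher and blue points the 601 called lower; the curved edges are genes with no count in 1 of the groups, whose fitted fold change is not a measured size.

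The genes of the sort serve as a check of the labels. Ccr6 lies at 8236043 to 8257141 on chromosome 17 (mm10, ENSMUSG00000040899.13) and was measured at 779 and 888 CPM in the dermal CCR6+ libraries and at 0, 24.1 and 0.159 in the subcutaneous ones. Its log2 fold change was 6.68 ± 1.5 (SE, edgeR adjusted p = 0.0229). The call was lost without dermal CCR6+ replicate 2 (adjusted p = 0.0759) and in a fit of these 5 libraries alone (0.061), and the adjusted p was 6.86e-05 without subcutaneous replicate 2, the library that carried Ccr6. Ly6a, which encodes Sca1 (chromosome 15, 74994877 to 74998031), was at 213 and 101 CPM against 1208, 1486 and 1866, a log2 fold change of -3.28 ± 0.377 (adjusted p = 0.000759). Thy1, a surface protein of T cells and ILCs, was at 231 and 231 CPM against 61, 96 and 99.7 (1.43 ± 0.279, adjusted p = 0.0122), a call lost without dermal CCR6+ replicate 2 (0.0736). The pan-leukocyte gene Ptprc, the IL-7 receptor gene Il7r, the ILC regulator Id2 and the common cytokine receptor gene Il2rg did not pass the test. Id2 was at 1829 and 1795 CPM against 2034, 2010 and 1716, and Il7r at 533 and 546 against 588, 583 and 521.

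Genes of the type 2 programme went both ways, with Il5, Csf2, Il1rl1, Klrg1 and Arg1 lower in dermal CCR6+ ILCs and Icos and Tnfrsf4 higher. Of 30 genes on the type 2 list, 12 were lower, 5 were higher and 13 did not pass the test, with a median log2 fold change of -0.42. Il5 (ENSMUSG00000036117.2, chromosome 11, 53720794 to 53725106), the eosinophil growth factor whose promoter is printed above, was at 259 and 287 CPM in the dermal CCR6+ libraries and at 2815, 3132 and 2375 in the subcutaneous libraries. The groups were well separated, with a log2 fold change of -3.34 ± 0.343 (edgeR adjusted p = 0.000404). Csf2, the gene of the myeloid growth factor GM-CSF, was at 56.5 and 21.4 CPM against 826, 948 and 1139 (-4.64 ± 0.421, adjusted p = 0.000242). Il13 was at 14.1 and 10.6 against 27.8, 40.1 and 29.3 CPM, and Areg, an epidermal growth factor receptor ligand, at 245 and 233 against 723, 574 and 736. Both cytokine genes were lower by a smaller margin than Il5.

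The receptors of the type 2 programme split. Il1rl1 (chromosome 1, 40429570 to 40465415), the IL-33 receptor, was nearly absent from the dermal CCR6+ libraries, at 0.77 and 0.132 CPM, and stood at 900, 819 and 897 in the subcutaneous ones (log2 fold change -10.88 ± 1.56, edgeR adjusted p = 0.0025). Klrg1 (chromosome 6, 122270596 to 122282882), an inhibitory lectin-like receptor of mature ILCs, was at 3.66 and 5.21 against 681, 734 and 1074 CPM (-7.54 ± 0.391, adjusted p = 8.06e-06). Il2ra, the IL-2 receptor alpha chain, was at 105 and 95.6 against 1082, 904 and 808 (-3.21 ± 0.214, adjusted p = 5.57e-05). Nmur1, the neuromedin U receptor through which neurons reach ILCs, had no count in either dermal CCR6+ library and lay at 22.1, 32.7 and 46.5 CPM below the dermis, at least 339-fold lower when the group is taken at 3 counts in all. In the other direction, Icos (ENSMUSG00000026009.14, chromosome 1, 60977927 to 61000320), a costimulatory receptor, was at 3958 and 4963 against 640, 834 and 694 CPM (2.63 ± 0.204, adjusted p = 0.000108). Tnfrsf4, which encodes the costimulatory receptor OX40, was at 162 and 135 against 22.2, 24.2 and 26.3 (2.61 ± 0.257, adjusted p = 0.000333). Il17rb, a subunit of the IL-25 receptor, was at 69.8 and 123 against 15.6, 18.8 and 19.4 CPM, and Ptgdr2, whose product senses prostaglandin D2, at 18.5 and 19 against 0, 1.53 and 0.0793. The IL-33 and IL-25 receptor genes thus changed in opposite directions.

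Among the regulators and enzymes of the list, Gata3 was at 1084 and 1240 against 2000, 1294 and 1513 CPM, and Rora at 2515 and 2509 against 2449, 1937 and 1976. Neither passed the test, with log2 fold changes of -0.46 ± 0.207 (edgeR adjusted p = 0.214) and 0.24 ± 0.175 (0.452). Arg1 (chromosome 10, 24915221 to 24927484), which breaks down arginine, was at 9.82 and 9.57 against 622, 763 and 886 CPM (-6.29 ± 0.282, adjusted p = 3.72e-06). Alox5, the first enzyme of leukotriene synthesis, was at 2.63 and 0 against 475, 507 and 803 (-8.80 ± 1.03, adjusted p = 0.000857), and the lipid-sensing nuclear receptor Pparg at 11.3 and 8.98 against 72.2, 69.1 and 99.9 (-2.99 ± 0.412, adjusted p = 0.00194). Arg1, Alox5 and Pparg are also genes of macrophages, and the 18 macrophage markers summed to 336 and 196 CPM against 6921, 13859 and 7944; their part in these results was not tested. On the per-length TPM scale, Icos had the highest mean of the genes just described in dermal CCR6+ ILCs, at 2351, and Il5 in subcutaneous ILCs, at 2502, followed by Csf2 at 2133. The calls of Il13, Areg and Pdcd1, the gene of the inhibitory receptor PD-1, were lost without any 1 of the 5 libraries (adjusted p between 0.0382 and 0.0417 with all, and between 0.0641 and 0.286 without 1). Those of Il17rb and Ptgdr2 were lost without dermal CCR6+ replicate 2 (0.057 and 0.0604), and that of Ptgdr2 also without subcutaneous replicate 3 (0.0506) and in the fit of the 5 libraries (0.0697).

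**Figure D2:**
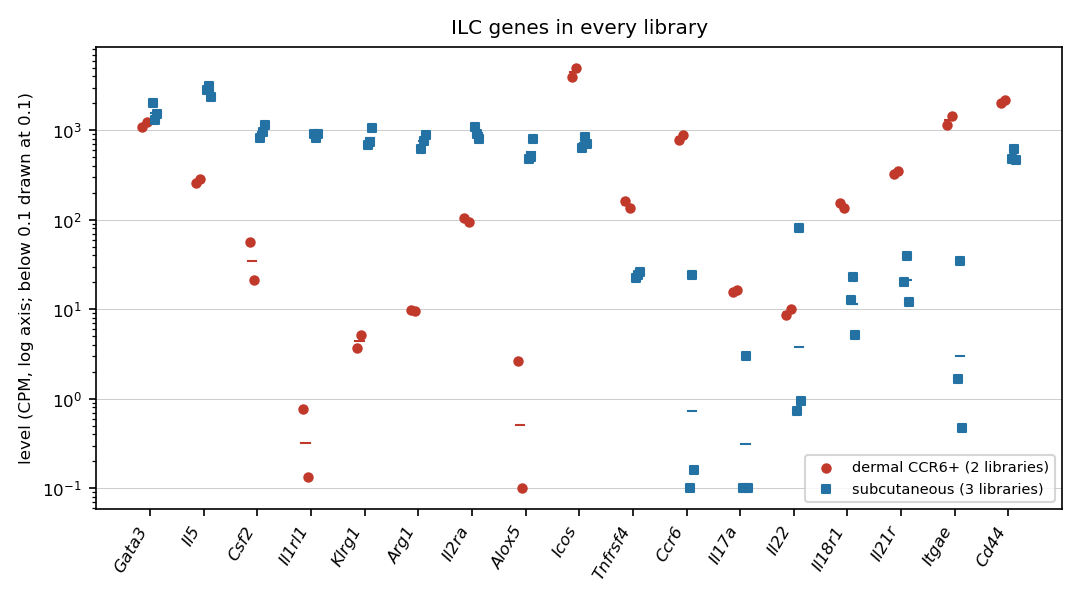
Level of 17 ILC genes in every library (CPM, log axis, values below 0.1 drawn at 0.1); red circles are the 2 dermal CCR6+ libraries, blue squares the 3 subcutaneous libraries, and short lines the geometric means of the drawn values. Il5, Csf2, Il1rl1, Klrg1, Arg1, Il2ra and Alox5 sit lower in dermal CCR6+ ILCs and Icos, Tnfrsf4, Il18r1, Il21r, Itgae and Cd44 higher, while the subcutaneous libraries spread widely in Ccr6 and Il22.

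Group 3 genes did not move in a single direction. Of 26 genes on the type 3 and lymphoid tissue inducer list, 5 were higher, 5 lower and 16 did not pass the test (median log2 fold change -0.38). The 5 higher ones included Ccr6, the gene of the dermal sort. Lta, the gene of lymphotoxin alpha, was at 50.6 and 64 CPM in the dermal CCR6+ libraries and at 0.87, 9.18 and 8.17 in the subcutaneous ones (3.24 ± 0.644, edgeR adjusted p = 0.0131), and Tox, a regulator of ILC development, at 166 and 135 against 36.1, 58 and 74.9 (1.42 ± 0.274, adjusted p = 0.0115). The effector cytokines were low in both groups. Il17a was at 15.5 and 16.6 against 0, 2.99 and 0 CPM, Il17f at 39.4 and 42.3 against 0, 43.5 and 0, and Il22 at 8.54 and 9.97 against 0.736, 80.2 and 0.952. None of them passed the test, and subcutaneous replicate 2 alone carried Il22 and Il17f in its group. Tmem176b, a membrane protein gene, was lower, at 388 and 445 against 1146, 1511 and 1771 CPM (-1.83 ± 0.251, adjusted p = 0.00193). Without dermal CCR6+ replicate 2 only Tox of the 5 higher genes was still called (adjusted p = 0.0456, and 0.071 for Lta), and Tox was lost without replicate 1 (0.0668). Of the 5 lower genes, Tmem176b and Arg1 were still called without dermal CCR6+ replicate 2.

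Several genes of natural killer cells and type 1 ILCs were detected mainly in subcutaneous replicate 2. In that library Gzma, a granule protease, was at 199 CPM, the receptor gene Klrb1c at 106, the activating receptor gene Ncr1 at 63.6 and the regulator Eomes at 22.9. In the other 2 subcutaneous libraries Gzma was at 12.3 and 2.7, Klrb1c at 3.15 and 0.872, Ncr1 at 2.54 and 0 and Eomes at 0 and 0. In the dermal CCR6+ libraries Gzma and Eomes had no count, Klrb1c was at 0.706 and 0, and Ncr1 at 1.86 and 0. Of 23 list genes tested, 4 were lower and none higher (Ccl5, Ccl3, Ccl4 and Stat4), and the lower count was 0 without either dermal CCR6+ library. Without subcutaneous replicate 2, 1 gene was lower and 3 were higher, Klrk1, Nkg7 and Cd160 (edgeR adjusted p = 0.000104, 0.000432 and 0.0406). Stat4, which carries IL-12 signals, was at 33.8 and 46.3 against 140, 192 and 117 CPM (edgeR adjusted p = 0.0324, and 0.0501 to 0.156 without any 1 of the 5 libraries). Klrk1, the NKG2D gene, was at 248 and 255 against 5.89, 137 and 2.78 and did not pass the test with all libraries (adjusted p = 0.245). Among 16 lectin-like receptors of natural killer cells tested, Klrg1 was the only gene called with all libraries. Without subcutaneous replicate 2, Klrk1, Klrb1b and Klrb1f were called higher as well (0.000104, 0.0189 and 0.0472).

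Some genes of T cell receptor signalling were higher in dermal CCR6+ ILCs, while no antigen receptor chain constant gene was called higher. Of 25 genes on the T cell list, 5 were higher and 2 lower. The higher ones included Zap70 and the lower ones Themis, both also genes of T cell receptor signalling (edgeR adjusted p = 0.028 and 0.0362). Both of these calls were lost without any 1 of the subcutaneous libraries (0.0522 to 0.0896). Lck, a kinase that starts signalling at the receptor, was at 519 and 625 against 69.8, 203 and 96.3 CPM (2.21 ± 0.382, edgeR adjusted p = 0.00677). Cd27, a costimulatory receptor gene, was at 209 and 205 against 33.9, 44.4 and 49.1 (2.28 ± 0.219, adjusted p = 0.000297). Ubash3a, which restrains receptor signalling, was at 81 and 99.3 against 14.7, 13.9 and 12.1 (2.73 ± 0.307, adjusted p = 0.00069). Cd3g was at 448 and 387 against 92.6, 172 and 194 CPM, but the call (adjusted p = 0.0227) was lost without either dermal CCR6+ library or without subcutaneous replicate 2 (0.0525 to 0.0962). Cd3e was at 80.1 and 23.2 against 11.8, 48.1 and 1.98 and Trac at 55.4 and 42 against 12.2, 25.7 and 2.54, and neither passed the test. Trbc2 was at 237 and 269 against 183, 241 and 324. Tcrg-C1, a gamma chain constant gene, was lower, at 10.3 and 16.2 against 69.4, 101 and 80.2 CPM (-2.66 ± 0.414, adjusted p = 0.00395).

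Cytokine receptors other than those of the type 2 list also differed. Il18r1, the IL-18 receptor gene, which lies next to Il1rl1 on chromosome 1 (40465552 to 40500854), was at 153 and 137 CPM in dermal CCR6+ ILCs and at 12.7, 22.9 and 5.15 below (3.42 ± 0.45, edgeR adjusted p = 0.00157). The 2 neighbouring genes therefore went in opposite directions. Il1r2, the decoy receptor for IL-1, was at 234 and 339 against 25.5, 35.4 and 19 (3.42 ± 0.358, adjusted p = 0.000458). Il21r was at 324 and 350 against 20.4, 39.6 and 12.2 (3.81 ± 0.464, adjusted p = 0.00103). Of the 14 alarmin and IL-1 family receptor genes tested, 3 were higher and 2 lower, and of 25 other cytokine receptor genes 2 were higher and 2 lower (4 lower without dermal CCR6+ replicate 1). The IL-7, TSLP and TGF-beta receptor genes Il7r, Crlf2 and Tgfbr2 did not pass the test, with log2 fold changes of -0.06, -0.15 and 0.07. Il1rn, the gene of the IL-1 receptor antagonist, was at 4.75 and 5.94 against 75.8, 121 and 26.2 CPM, a call (adjusted p = 0.0209) lost without any library but subcutaneous replicate 3 (0.0512 to 0.137). Among feedback genes, Socs2 was lower, at 56.8 and 65.3 against 254, 223 and 270 (-2.03 ± 0.28, adjusted p = 0.00197).

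Of 29 secreted cytokine genes tested, 8 were lower and 1 higher, with a median log2 fold change of -1.51. Besides Il5 and Csf2, Csf1, the macrophage growth factor gene, was at 7.19 and 7.06 against 181, 108 and 134 CPM (-4.31 ± 0.312, edgeR adjusted p = 6.8e-05). Lif, a cytokine of the IL-6 family, was at 13.2 and 13.5 against 182, 119 and 94.2 (-3.30 ± 0.349, adjusted p = 0.000488). Without 1 library, between 4 and 5 of the 8 were still called. The only gene called higher was Bmp2, a bone morphogenetic protein, at 229 and 204 against 100, 58 and 48.7 CPM (1.65 ± 0.359, adjusted p = 0.0201), which was lost without 4 of the 5 libraries (0.0685 to 0.0842). Tgfb1 was at 401 and 499 against 410, 287 and 355 and Tnf at 33.1 and 40.5 against 37, 36.4 and 31.1, and neither passed the test.

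In the TNF families, Cd70, the ligand of CD27, was higher together with its receptor gene, at 58.1 and 22.9 against 2.61, 2.43 and 1.59 CPM (4.19 ± 0.464, edgeR adjusted p = 0.000653). Tnfrsf8, the CD30 gene, was at 20 and 24.6 CPM in dermal CCR6+ ILCs and had no count in the 3 subcutaneous libraries, at least 311-fold higher when that group is taken at 3 counts in all. Tnfrsf1b, a TNF receptor gene, was at 1339 and 1620 against 333, 415 and 215 (2.20 ± 0.383, adjusted p = 0.00694, and 0.0516 without dermal CCR6+ replicate 2). The death receptor gene Fas was at 71.1 and 65.5 against 17.7, 30 and 16.4 (1.68 ± 0.299, adjusted p = 0.0079). In the receptor family 5 of 22 genes were higher and 2 lower, Tnfrsf9 and Tnfrsf18. Of 17 ligand genes 2 were higher, Lta and Cd70, and 1 was lower, Tnfsf11. The lower calls of Tnfsf11 and Tnfrsf18 were each lost without at least 4 of the 5 libraries, and that of Tnfrsf9 without 2 of them.

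Receptors that place lymphocytes in tissue gave some of the widest differences. Itgae (ENSMUSG00000005947.11, chromosome 11, 73090583 to 73147446), the integrin CD103 that binds E-cadherin on epithelium, was at 1157 and 1443 CPM in dermal CCR6+ ILCs and at 1.67, 34.6 and 0.476 in subcutaneous ILCs (6.73 ± 1.32, edgeR adjusted p = 0.0125). The call was kept without any of the 5 libraries. Itga4, an integrin that binds VCAM-1, was the opposite, at 6.35 and 5.15 against 178, 194 and 160 (-4.94 ± 0.491, adjusted p = 0.000353). No other of 24 integrin genes was called, though 3 were lower without dermal CCR6+ replicate 1. Itgb7, whose product can pair with either of them, was at 1441 and 1824 against 1944, 1846 and 2544 and did not pass the test (-0.37 ± 0.224, adjusted p = 0.365). Cd44, a hyaluronan receptor, was at 1999 and 2178 against 474, 614 and 462 (2.01 ± 0.184, adjusted p = 0.000245), and Cd101, a gene of resident T cells, at 319 and 243 against 46.3, 36.7 and 46.1 (2.71 ± 0.251, adjusted p = 0.00026). Itgae, Cd44 and Cd101 were the 3 genes called of 11 residency genes tested. Cd69 was at 384 and 243 against 544, 461 and 589 and was not called.

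Of 8 egress genes, 3 were lower and none higher. The lower calls were not all kept without either dermal CCR6+ library, and their count stayed at 3 without each subcutaneous library. Without subcutaneous replicate 2, Ccr7 and S1pr5 were called higher (edgeR adjusted p = 0.00659 and 0.0492); with all libraries Ccr7 was at 453 and 486 against 48.3, 204 and 12.1 CPM and was not called (0.102). Klf2, a transcription factor that maintains egress receptors, was at 74.8 and 55.3 against 318, 281 and 252 CPM (-2.12 ± 0.265, edgeR adjusted p = 0.00113). S1pr1, the egress receptor itself, was at 92.8 and 62.6 against 66.9, 161 and 75.8, with overlapping groups. Klf2, Klf3, Klf5 and Klf6 were lower and none of the 15 Kruppel-like factors tested was higher. Klf3 and Klf5 were lost without either dermal CCR6+ library (0.0519 to 0.126) and Klf6 without dermal CCR6+ replicate 1 (0.0572).

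Chemokine receptors were higher in 6 of 18 genes and lower in 2. The 6 higher ones included Ccr6, by which the dermal cells were sorted. Ccr8, a skin-homing receptor, was high in both groups, at 2027 and 2266 against 1221, 1173 and 1539 CPM (0.71 ± 0.179, edgeR adjusted p = 0.0388). Cxcr4 was at 220 and 155 against 50.9, 81.3 and 46.8 (1.65 ± 0.303, adjusted p = 0.00899), and Cx3cr1 at 80.7 and 95.6 against 8.97, 6.61 and 0.555 (4.02 ± 0.862, adjusted p = 0.0188). Ackr4, which takes up CCR7 and CCR9 ligands, was at 17.7 and 16.1 CPM and had no subcutaneous count, at least 236-fold higher by the same bound. Ccr2, a receptor of monocytes and type 2 ILCs, was at 27.5 and 27.5 against 743, 916 and 1082 (-5.05 ± 0.895, adjusted p = 0.00771). Cxcr6 was at 2642 and 2805 against 1927, 2697 and 2028 and did not pass the test (adjusted p = 0.446). Ackr4 kept its call without any library, while 2 of the 6 higher genes and neither of the lower ones were called without dermal CCR6+ replicate 2; Ccr2 then had an adjusted p of 0.0808, Ccr8 0.26, Cx3cr1 0.0784 and Ccr6 0.0759. Ccr2 was also lost without dermal CCR6+ replicate 1 (0.0516) and Cx3cr1 without subcutaneous replicate 2 (0.0596). Cxcr4 was lost without dermal CCR6+ replicate 1 (0.0612), Ccr8 in every such fit except that without subcutaneous replicate 3, and Ccr8 and Ccr10 in the fit of the 5 libraries (0.0717 and 0.0707).

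Of 29 lineage transcription factor genes tested, 7 were higher and none lower. Ikzf3, the Aiolos gene, was at 1435 and 1365 against 310, 298 and 322 CPM (2.17 ± 0.187, edgeR adjusted p = 0.0002) and kept its call without any library. Tcf7, the gene of TCF-1, was at 283 and 336 against 72.5, 125 and 51.8 (1.89 ± 0.347, adjusted p = 0.0089, and 0.0692 without dermal CCR6+ replicate 2). Tox, Maf, Batf and Zeb1 were also among them, and without dermal CCR6+ replicate 2 the count of 7 fell to 2. Among costimulatory and inhibitory receptors, 4 of 22 genes were higher (6 without subcutaneous replicate 2) and 3 lower. Slamf1, a self-binding receptor of lymphocytes, was at 48.7 and 57.6 against 0, 0.487 and 0.159 (7.90 ± 0.764, adjusted p = 0.000302), and Cd96 at 316 and 427 against 59.3, 118 and 74.9 (2.14 ± 0.285, adjusted p = 0.00162). Cd200r1, an inhibitory receptor, was lower, at 23.9 and 21.2 against 179, 158 and 143 (-2.83 ± 0.268, adjusted p = 0.000288). Ctla4 was at 85.5 and 150 against 26.5, 35.8 and 17.2, a call (adjusted p = 0.0215) lost without dermal CCR6+ replicate 2 or subcutaneous replicate 1 or 3 (0.0719 to 0.21).

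GIMAP genes encode GTPases of lymphocyte survival, and 7 of 8 were lower in dermal CCR6+ ILCs, with a median log2 fold change of -5.51. Gimap6 was at 13.3 and 8.52 CPM against 469, 526 and 496 (-5.51 ± 0.327, edgeR adjusted p = 2.52e-05), and Gimap3 at 1.48 and 3.56 against 683, 495 and 753 (-7.99 ± 0.811, adjusted p = 0.000392). Gimap1, Gimap3, Gimap4 and Gimap6 kept their calls without any of the 5 libraries, and between 5 and 6 of the 7 were called without 1. These genes resemble each other, so reads may be split between them with error.

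**Figure D3:**
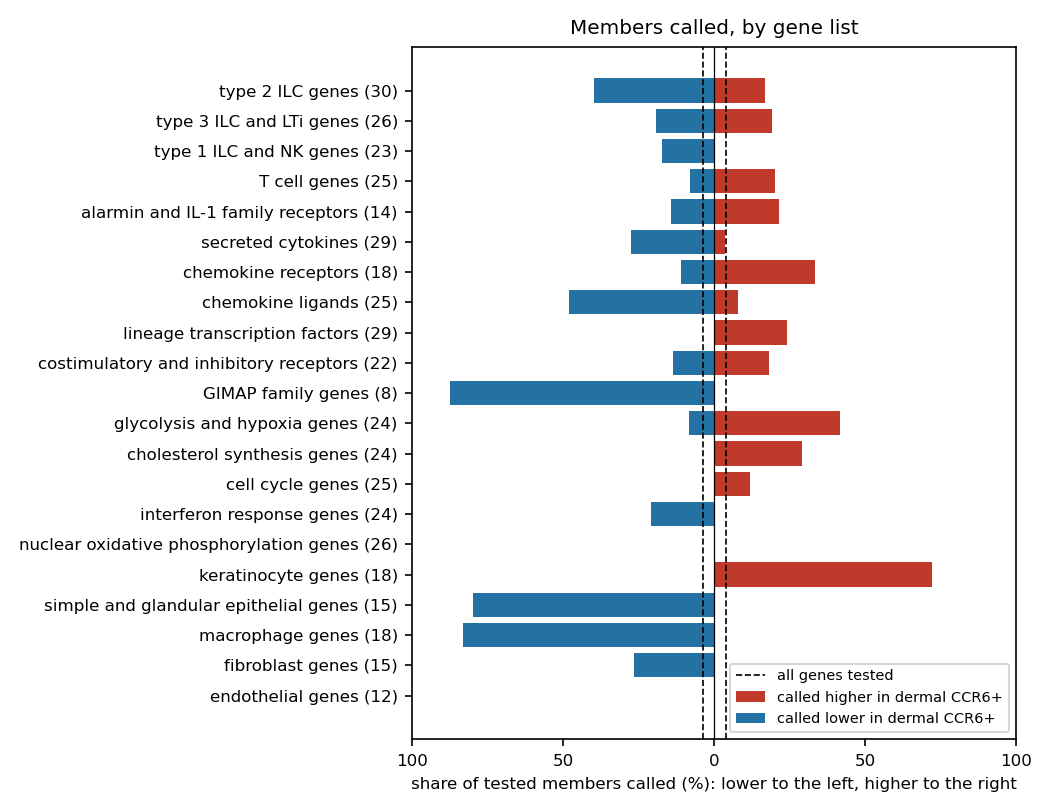
Share of the tested members of 21 gene lists called higher (red, to the right) or lower (blue, to the left) in dermal CCR6+ than in subcutaneous ILCs, with the number tested in brackets. Dashed lines mark the shares over all genes tested, 3.75% higher and 3.71% lower; the longest bars are the GIMAP, macrophage, glandular epithelial and keratinocyte lists.

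Of 24 glycolysis and hypoxia genes, 10 were higher in dermal CCR6+ ILCs, 2 were lower and 12 did not pass the test, with a median log2 fold change of 0.83. Egln3 (chromosome 12, 54178981 to 54203860), an oxygen-sensing prolyl hydroxylase, was at 193 and 229 against 8.23, 14.5 and 9.28 CPM (4.30 ± 0.305, edgeR adjusted p = 5.92e-05). Aldoa, the aldolase gene, was at 1560 and 1742 against 733, 796 and 848 (1.06 ± 0.163, adjusted p = 0.00367). Gapdh was at 2941 and 3193 against 1511, 1673 and 1636 (0.93 ± 0.17, adjusted p = 0.00876), and Pkm, a pyruvate kinase gene, at 2357 and 2896 against 994, 1163 and 1365 (1.16 ± 0.212, adjusted p = 0.00878). The other 6 higher genes were Pfkp, Tpi1, Pgk1, Pgam1, Eno1 and Ero1l, and the lower ones were the glucose transporter gene Slc2a3 and Pdk1, which holds pyruvate from the mitochondria. Ldha, the last step to lactate, was at 3162 and 3919 against 2929, 3440 and 3800, and Hif1a at 407 and 436 against 412, 391 and 292, and neither passed the test. Only Aldoa and Egln3 were still called higher without dermal CCR6+ replicate 2 (adjusted p of 0.0854 for Gapdh and 0.0931 for Pkm), and 6 of the 10 without dermal CCR6+ replicate 1. None of 26 nuclear oxidative phosphorylation genes was called by edgeR (median 0.21), with 4 at an unadjusted p under 0.05 and 2 called by DESeq2 and by limma.

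Of 24 cholesterol synthesis genes, 7 were higher and none lower (median 0.74). Fdps, which makes farnesyl pyrophosphate, was at 181 and 251 against 28, 44.5 and 55.7 CPM (2.34 ± 0.321, edgeR adjusted p = 0.00193). Insig1, a sterol-sensing regulator, was at 171 and 181 against 38.2, 45.4 and 49.1 (1.99 ± 0.205, adjusted p = 0.000417), and Mvd, an enzyme of the mevalonate branch, at 33.7 and 46.6 against 9.51, 10 and 10.9 (1.99 ± 0.294, adjusted p = 0.00301). Without dermal CCR6+ replicate 2, 4 of the 7 were called. In lipid handling, Fabp5, a fatty acid carrier, was higher, at 207 and 176 against 46.3, 62.9 and 57.3 (1.79 ± 0.308, adjusted p = 0.00677), and Plin2, which coats lipid droplets, was lower, at 81.8 and 74.5 against 291, 380 and 281 (-2.02 ± 0.281, adjusted p = 0.00201). Keratinocytes and sebocytes express several of these genes as well, and their markers are given below.

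Of 25 cell cycle genes 3 were higher, Ccnb2, Ube2c and Mcm5, and the count was 0 without dermal CCR6+ replicate 2, without subcutaneous replicate 1 or without subcutaneous replicate 3, and 7 without subcutaneous replicate 2. Of 24 interferon response genes 5 were lower and none higher (median -2.38), and all 24 log2 fold changes were negative. Ifi27l2a was at 21.6 and 20.5 against 95.9, 314 and 214 CPM (-3.30 ± 0.455, edgeR adjusted p = 0.00194), and without dermal CCR6+ replicate 2 it was the only gene of the 5 that was called. Of 23 immediate early genes 4 were lower, and of 14 heat shock genes 3, with counts of 1 and 0 without dermal CCR6+ replicate 2. Spry2, an inhibitor of growth factor signalling, was lower, at 2.95 and 0.594 against 54.9, 45.8 and 49.4 (-4.81 ± 0.678, adjusted p = 0.00219), and Dusp2, a nuclear phosphatase gene, higher, at 170 and 138 against 24.4, 41.7 and 15.4 (2.50 ± 0.414, adjusted p = 0.00536).

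By the rule used to name genes, the called genes of the highest level included 8 in either direction. Higher ones besides Icos, Gapdh, Pkm, Ccr8 and Cd44 were Fth1, Ucp2 and Capg. Capg, an actin-capping protein gene (chromosome 6, 72544391 to 72562983), was at 2096 and 2504 against 236, 324 and 348 CPM (2.93 ± 0.202, edgeR adjusted p = 5.57e-05), and Ucp2, a mitochondrial carrier gene, at 3453 and 3712 against 1050, 1184 and 1354 (1.58 ± 0.172, adjusted p = 0.00056). Lower ones besides Il5 and Klf6 were the cytoskeletal gene Actg1, the class I gene H2-K1, Serinc3, Srgn, Lyz2 and Retnla. Srgn, which packs granule contents, was at 1026 and 1099 against 2936, 3033 and 2788 (-1.46 ± 0.187, adjusted p = 0.00136). Capg, Ucp2 and Srgn kept their calls without any of the 5 libraries. Actg1 was at 6073 and 5293 against 10779, 12027 and 11599 CPM (-1.01 ± 0.184, adjusted p = 0.00868), a call lost without dermal CCR6+ replicate 2 (0.101), as were those of Fth1 (0.172), H2-K1 (0.0736) and Serinc3 (0.0574). H2-K1 and Serinc3 were also lost without dermal CCR6+ replicate 1 (0.0811 and 0.083) and Fth1 without subcutaneous replicate 2 or 3 (0.0685 each). Among the called genes with the widest fold, Dach2, a transcription factor gene, was at 0.449 and 0.396 CPM against 62.5, 45.7 and 82.8, and at 56.8 and 63.3 in the dermal Sca1+ libraries. Others of that set on the higher side were genes of cornified epithelium or skin (Calm4, Psapl1, Fgfbp1, Krt77, Krt1 and Krtdap). On the lower side were genes of glands or macrophages (Krt19, Wfdc18, Krt7, Cd209f, Fcna, F13a1 and C3ar1). Aadac, also higher, was at 25.8 and 16.5 CPM against 0, 0.278 and 0, and at 5.26, 5.78 and 12.2 in epidermal ILCs. The remaining genes of that set are described elsewhere. Krt19, a keratin of simple epithelium, had the widest fold of the lower set, at 0.385 and 0 CPM against 1120, 435 and 577.

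Among genes with at most 3 counts over the 3 subcutaneous libraries, the highest in dermal CCR6+ ILCs were Cyp2g1, Tff1, Serpina3b and Asic3. Asic3, an acid-sensing ion channel gene, was at 41.4 and 64.9 CPM and had no subcutaneous count, at least 740-fold higher by the same bound. Tff1, a trefoil factor gene, was at 52.4 and 79.9 against 0.0669, 0 and 0.0793, a ratio of 1383 (95% counting interval 382 to 11426). Both genes were also found in epidermal ILCs, Asic3 at 86.6, 42.3 and 51.7 and Tff1 at 79.9, 85 and 82.2, and in the dermal Sca1+ libraries Asic3 had no count and Tff1 was at 0 and 0.773. Cyp2g1, a cytochrome P450 gene, was at 74.2 and 114 CPM and had no subcutaneous count, at least 1312-fold higher, and was at 160 and 365 in the dermal Sca1+ libraries. Serpina3b, a serine protease inhibitor gene, was at 43.9 and 74.5 against 0, 0 and 0.0793. In epidermal ILCs Cyp2g1 was at most 14.6 CPM and Serpina3b at most 8.57.

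Markers of other cells differed strongly between the groups and are given as measured; their part in the results above was not tested. Of 18 keratinocyte genes 13 were higher and none lower (median log2 fold change 4.2), and the list summed to 2644 and 1893 CPM in the dermal CCR6+ libraries, 247, 152 and 116 in the subcutaneous ones and 2708 and 2455 in the dermal Sca1+ ones. In the epidermal libraries the list summed to 4040, 11344 and 10427 CPM. Krt15, a keratin of follicle stem cells and basal cells, was at 754 and 575 against 3.28, 2.23 and 0.872 (8.26 ± 0.576, edgeR adjusted p = 5.57e-05), and Krt79, a keratin of the follicle and sebaceous duct, at 94.1 and 60.9 against 0.536, 0 and 0.317 (8.04 ± 0.695, adjusted p = 0.0002). The late differentiation genes Lor, Flg and Ivl had no count in either dermal CCR6+ library. Of 14 sebocyte genes 5 were higher (Scd1, Elovl3, Elovl4, Far2 and Cidea) and 4 lower (Elovl5, Soat1, Plin2 and Pparg). Elovl4, which makes very long fatty acids, was at 130 and 108 against 2.21, 0 and 0 (7.26 ± 1.09, adjusted p = 0.00319), and Elovl5, a fatty acid elongase gene, at 695 and 786 against 1245, 1497 and 1307 (-0.87, adjusted p = 0.0335, and 0.052 to 0.165 without any 1 of the 5 libraries). The sebocyte list summed to 1759 and 1838 CPM against 2138, 2532 and 2211. Without dermal CCR6+ replicate 2, 3 of the higher and 2 of the lower sebocyte genes were called. The keratinocyte count was 12 or 13 without any 1 library.

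The subcutaneous libraries carried markers of 2 other kinds. Of 15 simple and glandular epithelial genes tested 12 were lower in dermal CCR6+ ILCs, and the list summed to 68.7 and 45 CPM against 5773, 2245 and 2773. The median was -11.77, and -8.97 with genes that had no count in a group set at their bound. Krt8, a keratin of simple epithelium, was at 0 and 0.132 CPM against 1414, 368 and 505, a ratio of 12013 (95% counting interval 3325 to 99198), and its partner Krt18 had no count against 982, 322 and 468, at least 6159-fold lower. Ltf, the lactoferrin gene, was at least 2116-fold lower, with 201, 197 and 225 CPM below the dermis, and Csn3, a milk casein gene, at least 1227-fold lower. Of 18 macrophage genes 15 were lower (median -6.04). Lyz2, the lysozyme gene, was at 161 and 149 against 2750, 4509 and 2320 CPM (-4.37 ± 0.435, adjusted p = 0.000353), and the haemoglobin gene Hbb-bs, a sign of red cells, at 6.29 and 0 against 346, 156 and 301. The call of Hbb-bs (adjusted p = 0.0263) was lost without dermal CCR6+ replicate 2 or subcutaneous replicate 1 or 3 (0.0585 to 0.0675).

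Of 25 chemokine ligand genes tested 12 were lower and 2 higher, with a median of -3.50. Many of them are also macrophage products, and the part of macrophages was not tested. Ccl6 was at 12.8 and 4.95 against 472, 1298 and 704 CPM (-6.53 ± 0.937, edgeR adjusted p = 0.00246) and Cxcl2, which draws neutrophils, at 31.5 and 24 against 415, 424 and 447 (-3.95 ± 0.442, adjusted p = 0.00069). Ccl1, the ligand of CCR8, was at 10.8 and 2.18 against 110, 98.7 and 139 (-4.15 ± 0.725, adjusted p = 0.00715). Ccl27a and Cxcl14, which keratinocytes make, were the higher ones, at 33.8 and 18.4 against 1.27, 0.696 and 2.14 and at 47.4 and 35.8 against 3.75, 10.3 and 8.72. Without dermal CCR6+ replicate 2, 4 of the 12 were called, Ccl1, Ccl6 and Cxcl2 among them, and the summed macrophage markers were 196 CPM in that library and 336 in the other.

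Stromal markers differed less. The fibroblast list summed to 3030 and 1744 CPM against 4593, 5851 and 3982, with 4 of 15 genes lower, and 1 of them called without dermal CCR6+ replicate 2. The endothelial list summed to 578 and 210 against 445, 836 and 750, and none of its 12 genes was called by edgeR, with 1 at an unadjusted p under 0.05, 1 called by DESeq2 and 0 by limma. The smooth muscle and pericyte list, with 9 genes, also held no edgeR call, with 1 gene at an unadjusted p under 0.05 and 1 called by each of the other tools. The 2 dermal CCR6+ libraries differed from each other in these lists, with less of each in replicate 2. Col1a1 was at 568 and 302 against 479, 568 and 416, and Pecam1 at 92.9 and 24.2 against 86.9, 181 and 130. Of 8 mast cell genes tested 2 were lower, of 10 B cell genes 3 were lower and 1, Sdc1, was higher, and of 11 MHC class II genes 4 were lower, a count that was 0 without either dermal CCR6+ library.

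**Figure D4:**
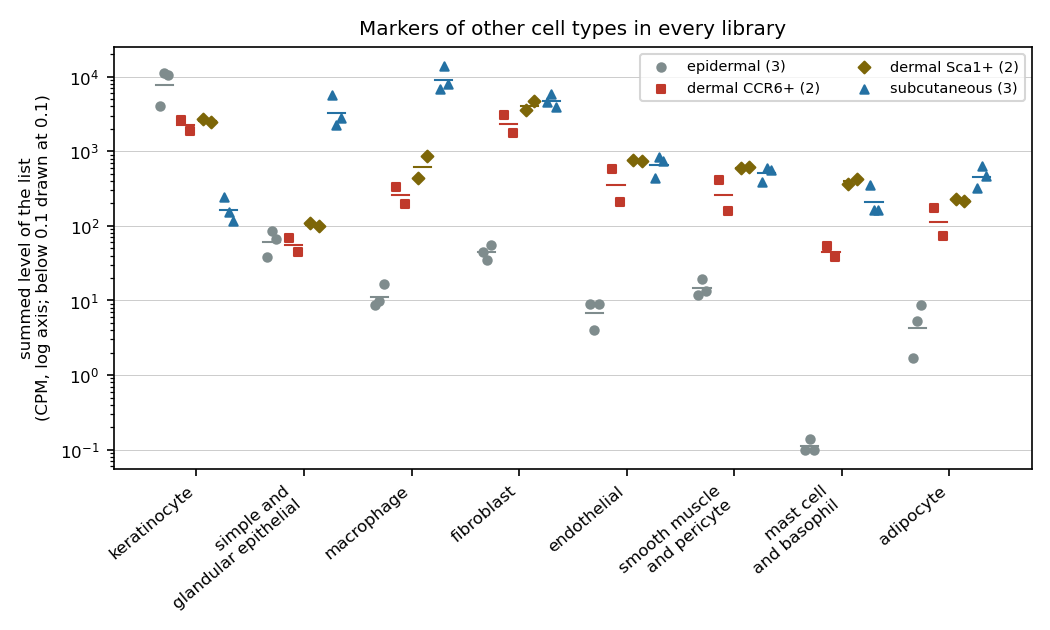
Summed level of 8 marker lists in every library (CPM, log axis, values below 0.1 drawn at 0.1), for all 4 groups of the series; short lines are geometric means. Keratinocyte markers are highest in the epidermal libraries, at 4040 CPM or more. They are at 1893 CPM or more in both dermal groups and at most 247 in subcutaneous libraries, whereas macrophage and glandular markers are highest in the subcutaneous libraries.

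The other groups of the series show where dermal CCR6+ genes stand beside dermal cells of the other sort and beside epidermal cells. Since the model shares these libraries, their values are set side by side with no further test. Some called genes had like levels in the 2 dermal sorts. Ikzf3 was at 1407 and 1188 CPM in dermal Sca1+ ILCs, close to the 1435 and 1365 of dermal CCR6+ ILCs, Cd27 at 201 and 191, and Il18r1 at 163 and 152. Icos, at 3194 and 3166, was below the 3958 and 4963 of dermal CCR6+ ILCs. Others differed between the dermal sorts. Itga4 was at 192 and 136 in dermal Sca1+ ILCs, within the subcutaneous range or near it, and at most 5.02 in epidermal ILCs, Cd200r1 was at 157 and 138, and Il21r at 72.3 and 59.

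Several strongly lower genes lay between the groups in dermal Sca1+ ILCs, whereas Areg, at 689 and 547 CPM, was within or near the subcutaneous range. Il5 was at 1648 and 1784 CPM there, Csf2 at 340 and 256, Klrg1 at 178 and 188, Il1rl1 at 111 and 119, Ccr2 at 264 and 402 and Gimap6 at 66.7 and 81.6. In epidermal ILCs these genes were far below the subcutaneous libraries too. Il5 was at 142, 64.9 and 79 there, Csf2 at 51.9, 49.2 and 55.4, Klrg1 at most at 0.906, Il1rl1 at 3.47, 0 and 0, Ccr2 at 17.7, 1.25 and 20.5 and Gimap6 at 3.2, 3.9 and 5.2. Other genes differed between the CCR6-rich groups. Il21r was at 55.1, 32.2 and 25.9 in epidermal ILCs and 324 and 350 in dermal CCR6+ ILCs, and Icos at 1546, 1188 and 1144 against 3958 and 4963. Egln3 was also highest in dermal CCR6+ ILCs, at 193 and 229 against 68, 80.5 and 53.3 in the epidermis and 81.7 and 105 in the dermal Sca1+ sort.

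**Figure D5:**
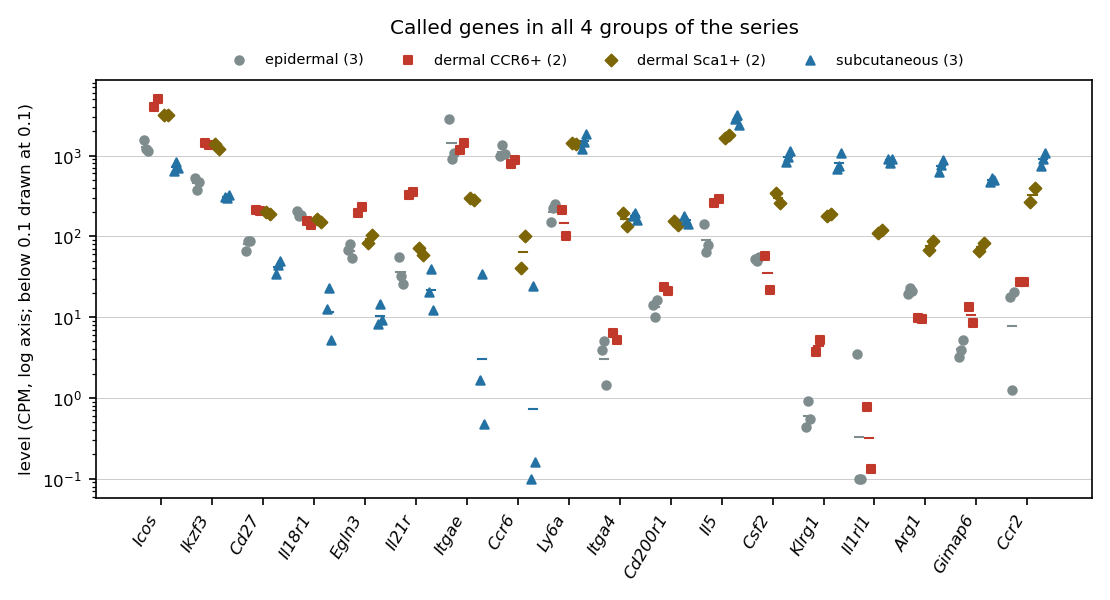
Level of 18 called genes in every library of the 4 groups (CPM, log axis, values below 0.1 drawn at 0.1); colours and shapes mark the groups and short lines the geometric means of the drawn values. Ikzf3, Cd27 and Il18r1 are alike in both dermal sorts. In dermal Sca1+ ILCs, Itga4, Cd200r1 and Ly6a, which encodes the marker of that sort, sit with the subcutaneous libraries.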

How the data were processed

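RNA from sorted ILCs was measured by bulk RNA-seq with a low-input cDNA kit that does not mark strand, per the labels' protocols. Reads were trimmed with Trimmomatic, aligned with STAR to mm10 and quantified with RSEM, per the submitters' processing notes, which give no versions. The deposited tables hold expected counts per gene, in which the authors' RSEM run split ambiguous reads, and TPM values corrected for length by the authors, per the file headers. The deposited effective length of each gene served only as an offset in 1 alternative.

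Of 47643 gene IDs per table, 47224 were matched to a symbol in GENCODE M21 and 419 were not. Expected counts were rounded, and genes were kept by filterByExpr with a minimum count of 10. Library sizes were scaled by TMM, and edgeR 4.0.16 in R 4.3.3 fitted 4 groups over all 10 libraries with the quasi-likelihood test and Benjamini-Hochberg adjustment at 0.05. The common biological coefficient of variation was 0.62. Standard errors were derived from the fold change and its F statistic. A floor of 3 counts over a group gave the bounds for genes without counts; intervals of 95% are exact and cover counting error only. Levels between genes were compared as TPM only.

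Replicates were taken from the titles, which number 2 libraries of each dermal sort; further libraries that the design text implies were not analysed here. The genes named are those without overlap between groups and with at least 20 CPM in the higher group: per direction the 12 of widest fold, the 4 highest with at most 3 counts in the lower group, and the 8 highest, with sort genes and members of the lists. The members and lists were chosen with earlier results of these data known. Antisense and overlapping genes, and near-identical families such as GIMAP, Ly6 and lectin-like receptor genes, can share reads. The results of some genes are not reported here. Alternatives were RLE scaling, DESeq2 1.42.0, limma 3.58.1 on log2(TPM + 1) and log2(TPM + 0.1), other filters and dispersions, a length offset, a fold threshold, 5 libraries only, replicate blocks and leaving out each library. The edgeR fit of all 10 libraries was tested on simulated data; the alternatives were not.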

Additional observations from a re-analysis of the deposited data

How the results depend on the processing

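The counts of genes called higher and lower were 608 and 601. They were 972 and 1373 with DESeq2 and 935 and 1357 with no filter beyond 1 count. Calls lower were 1079 with limma on log2(TPM + 1) and 1010 on log2(TPM + 0.1). Leaving out each library in turn gave 243 to 454 higher and 192 to 560 lower, with the lowest values without dermal CCR6+ replicate 2. These fits have fewer samples. Genes called higher made up 50.3% of calls, and 38.7% in the fit of the 5 libraries (520 higher, 825 lower), 41.4% with DESeq2 and 40.8% with no filter. RLE scaling, the filter at 5 CPM, robust dispersions, the length offset and the fold threshold of 1 left both counts within 1.5 times the main ones. No named gene with a call reversed under any of these alternatives.

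A replicate block by the number in the titles gave 437 higher and 450 lower, and a replicate block by consecutive stretches of the library numbers gave 549 and 488. Same-numbered libraries of the 2 groups deviated with correlations of -0.016 and -0.032 by title, over 2 pairs. Libraries of the same number stretch gave 0.032 and 0.015. The deviations of the 2 dermal CCR6+ libraries from their mean mirror each other. These values therefore cannot decide whether the samples are paired. Of 238 named called genes, 112 kept their call without any 1 of the 5 libraries and 118 lost it without dermal CCR6+ replicate 2. In the 5 libraries compared 3 counts were 0.193 to 0.238 CPM, and levels below that rest on 1 or 2 counts.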

Other observations

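Lipid mediator and signalling genes not described above also differed. Of 25 prostaglandin and leukotriene genes tested, 4 were lower and 2 higher. Ptgs2, an inducible cyclooxygenase gene, was at 7.77 and 3.3 CPM in dermal CCR6+ against 110, 92 and 46.9 in subcutaneous ILCs (log2 fold change -3.90 ± 0.703, edgeR adjusted p = 0.00839), and Ptger4, a prostaglandin E2 receptor gene, at 166 and 177 against 93.5, 65 and 54 (1.27 ± 0.279, adjusted p = 0.0209). Both calls were lost without dermal CCR6+ replicate 2 (0.0857 and 0.128), and that of Ptger4 also without dermal CCR6+ replicate 1 or subcutaneous replicate 2 or 3 (0.065 to 0.0719). Of 18 PPAR-gamma and fatty acid uptake genes, 3 were higher and 3 lower. Lpl is also on the adipocyte list, which summed to 172 and 74.3 CPM against 321, 637 and 470. The part of other cells in these results was not tested. Lpl, a lipase gene, was at 23 and 13 against 178, 193 and 147 (-3.26 ± 0.614, adjusted p = 0.0103), a call lost without dermal CCR6+ replicate 2 (0.107). Pmepa1, a TGF-beta target gene and the only call among 24 TGF-beta genes, was at 71.2 and 101 against 34.9, 21.2 and 16.9 (1.82 ± 0.332, adjusted p = 0.00886), lost without the same library (0.0978), and was at 5.4 and 7.39 in dermal Sca1+ ILCs.

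Of 16 Notch genes 1 was higher (Nrarp) and 1 lower (Notch2), of 11 SOCS and feedback genes 1 was higher (Socs1) and 1 lower (Socs2), and of 15 MAPK feedback genes 2 were higher and 2 lower. Of 17 arginine and polyamine genes 2 were higher and 1 lower (Arg1), and both higher calls were lost without any 1 of the 5 libraries. Of 14 neuropeptide and adrenergic receptor genes 1 was lower (Nmur1), and of 18 NF-kB target genes 1 was higher (Cd83) and 1 lower. The call of Cd83 was lost without 4 of the 5 libraries, and those of Nrarp, Notch2 and Socs1 without dermal CCR6+ replicate 2. Of 10 Ly6 family genes Ly6a was lower and Ly6g6c, expressed in epidermis, higher, at 69.7 and 66.7 against 3.08, 0.974 and 1.59 CPM. Of 11 dendritic and Langerhans cell genes 2 were lower, of 11 immune lineage genes 3, and of 8 adipocyte genes 3 were lower and 1 higher. None of 10 melanocyte and Schwann cell genes or 4 neutrophil genes was called by edgeR, with 2 in each list at an unadjusted p under 0.05, 2 in each called by DESeq2, and 0 and 2 by limma.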
